A study of Mus musculus with 12 samples.

Results

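Prok2 and 6 genes that signal in or around the suprachiasmatic nucleus, Prokr2, Vip, Vipr2, Grp, Nms and Rgs16, were followed in the hypothalamus of mice that drank alcohol or water. These 7 genes were chosen by name with their alcohol against water values already known, so those differences are given as a description and were not tested. Every non-control probe that the array files name for a member was taken, which gave 8 probes for 6 of the 7 genes, among 41174 probes and 28306 gene symbols on the array. No probe was found for Nms by symbol or by accession, and it is named only.

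Male ICR mice, an outbred strain, were 3 weeks old at the start and drank water from both of their tubes on days 1 to 5. Afterwards the alcohol mice had 1 tube with a 5% or 10% alcohol solution beside 1 tube of water, whereas the water-only mice kept water in both. Each array held hypothalamic RNA of a pool, with 3 pools of 3 mice for water (9 mice) and 9 pools of 1 to 3 mice for alcohol (19 mice), which the labels divide into 3 low, 3 early high and 3 late high alcohol drinkers. The sample labels place sacrifice on day 51 and the design text lets drinking run to day 57, and the hour of sacrifice is not given in the sources used here. Which alcohol strength a pool drank is not given in the labels, and the pool is the replicate throughout.

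The suprachiasmatic nucleus is a small paired nucleus above the optic chiasm that keeps daily time for the body. Its core receives light input and holds neurons that make vasoactive intestinal peptide (Vip) and gastrin-releasing peptide (Grp), and cells across the nucleus answer Vip through the receptor Vipr2. Prok2, prokineticin 2, is secreted from the nucleus with a daily rhythm and acts on target regions through the G protein-coupled receptor Prokr2. Nms, neuromedin S, marks a large set of suprachiasmatic neurons, and Rgs16 ends signals of inhibitory G proteins there. Several of these transcripts rise and fall over the day.

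Both Prok2 probes lie on chromosome 6 of mm9, the build the array files use, on the minus strand, from 99661399 to 99661458 (second probe) and from 99661495 to 99661554 (brighter probe). The Vip probe is listed from 4699238 to 4699297 on chromosome 10 (minus strand), the Prokr2 probe from 132197070 to 132197129 on chromosome 2 (minus strand), and the Rgs16 probe from 155592244 to 155592303 on chromosome 1 (plus strand). An annotation of mm9 was not used here, so exon or UTR is not stated. RefSeq has Vip on the plus strand of GRCm38.p6. Within 2 Mb of the Vip probe, 24 of 25 probes of 12 other genes were likewise listed on the strand opposite to that of their gene in GRCm38.p6, against 0.734% of 24935 probes on the whole array. The listed strand of Vip is therefore shared with its neighbors and not particular to this probe. The first 30 of their 60 bases, 5′ to 3′, identify what each measured value hybridized to.
Prok2, brighter probe: gacattttaaagaacgccactcgaggaagc
Prok2, second probe: ctttatttgtaacccaaaggtctaatgtaa
Vip: ggataaaagagatatgtggcaaaaggattt
Prokr2: agactaattaagggtaagattaagacactc
Rgs16: gagagaactcttttaagtataatattgtgt

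The 250 bases before the RefSeq start are shown for Prok2 and Vip, the measured members furthest below and above water in alcohol. Prok2 is also known as an output gene of the clock. In the Prok2 sequence (GRCm38.p6, chr6:99726393-99726642, minus strand) the capitals mark CACGTG, the E-box that clock transcription factors bind, at 135 to 130 bases before the start. In the Vip sequence (GRCm38.p6, chr10:5638968-5639217, plus strand) they mark TGACG, the core of the cyclic AMP response element, at 79 to 75 bases before the start.
Prok2: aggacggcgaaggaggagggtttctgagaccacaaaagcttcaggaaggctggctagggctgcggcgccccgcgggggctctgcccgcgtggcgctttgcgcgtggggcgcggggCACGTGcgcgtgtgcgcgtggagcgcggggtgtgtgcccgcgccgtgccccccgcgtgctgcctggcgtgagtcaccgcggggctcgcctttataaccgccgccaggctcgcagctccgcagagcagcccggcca
Vip: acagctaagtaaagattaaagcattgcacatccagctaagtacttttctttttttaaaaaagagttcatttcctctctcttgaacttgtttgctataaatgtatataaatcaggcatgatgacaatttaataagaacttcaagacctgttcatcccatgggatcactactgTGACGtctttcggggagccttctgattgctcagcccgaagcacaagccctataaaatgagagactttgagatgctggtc

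The member promoters searched were those of Prok2, Prokr2, Vip, Vipr2, Nms and Rgs16, without Grp. On both strands, CACGTG was found in the same window of 6.02% of 32851 RefSeq promoters and in 1 of these 6, that of Prok2. TGACG, which is also part of the full element TGACGTCA, was found in 17.8% of them and in 1 of 6 members, Vip. The full TGACGTCA (1.55% of promoters) and the D-box TTATGTAA (0.819%) were in none of the 6 windows. These are matches of letters in a window and not measured binding.

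The arrays lay on 3 slides of 4. All water pools shared slide 1, scanned on a day of its own, with pool 1 of the low drinkers. Pools 2 and 3 of the low drinkers were on slide 2 beside the first and second early high drinker pools. The remaining early high drinker pool and all late high drinkers were on slide 3. Hence only low drinker pool 1 could be compared with water on one slide. For the other 8 alcohol pools slide and alcohol cannot be told apart. A fit with slide as a fixed block links early high drinkers to water only by way of low drinker pool 1. Late high drinkers are linked by way of that pool and early high drinker pool 3. Low drinker pool 2 stood apart with a 25th percentile of signal of 63.2, next to 34.0 at most on the others. No spot was saturated, and 67.0% to 79.3% were well above background. Of the marker genes, 10 of 12 of other hypothalamic nuclei and all 9 regional genes of the suprachiasmatic nucleus were measured on all 12 arrays. Otp had no value on any array and Crh had no probe. All 6 thalamus, all 7 striatum, all 6 white matter and 4 of 5 cortex genes were measured on every array too. Presence of these markers thus does not set the hypothalamus apart from neighboring tissue. In bulk tissue, fewer cells of a type and less RNA per cell cannot be told apart.

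Prok2 was lower in the alcohol arrays on both probes. Values are log2 signal minus the 75th percentile of the array, a scale on which 1 unit is a 2-fold difference of 1 probe between arrays. The second probe read -1.13, -1.06 and -1.50 in the 3 water pools. Low drinker pools read -1.64, -1.72 and -1.65, early high drinker pools -1.94, -1.74 and -1.93, and late high drinker pools -1.66, -1.63 and -1.78. All 9 alcohol pools lay below all 3 water pools, and late high drinker pool 2 came nearest to them. Among 29521 probes measured throughout, 0.325% had all alcohol arrays below all water arrays and 0.982% had them above, and since this contrast chose the gene, nothing is read from it. The mean fell from -1.23 ± 0.23 (SD, n = 3) to -1.74 ± 0.12 (SD, n = 9), a difference of -0.51 with a standard error of 0.10, or 0.700 times the water signal.

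On the brighter Prok2 probe the water pools read -1.21, -1.26 and -1.52. Low drinker pools read -1.61, -1.45 and -1.80, early high drinker pools -1.61, -1.62 and -1.92, and late high drinker pools -1.55, -1.64 and -1.85. Low drinker pool 2 lay above water pool 3, so the groups overlapped through this pool. The difference was -0.34 with a standard error of 0.10, or 0.790 times the water signal. Across the 12 arrays the 2 probes correlated with r = 0.81, and within the 9 alcohol arrays with r = 0.37.

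Each drinking group lay below water on both Prok2 probes. On the second probe the difference was -0.44 in low, -0.64 in early high and -0.46 in late high drinkers (standard error 0.11 each), and the 3 comparisons share the same water pools. On the brighter probe it was -0.29, -0.38 and -0.35 (standard error 0.13 each). Within slide 1, low drinker pool 1 lay 0.41 below the water mean on the second probe and 0.28 below it on the brighter one, and under every water pool on both. The mean of low drinker pools 2 and 3, on slide 2, differed from pool 1 by -0.05 on the second and -0.01 on the brighter probe. On the brighter probe pool 2 (-1.45) lay above pool 1 (-1.61) and pool 3 (-1.80) below it. With slide as a fixed block, early high drinkers differed from water by -0.56 and -0.27 on the second and the brighter probe. The standard errors were 0.23 and 0.24. Late high drinkers differed from water by -0.32 and -0.03 in that fit, with standard errors of 0.28 and 0.30.

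Prokr2, the receptor of Prok2, did not separate the groups. The water pools read -2.63, -2.99 and -2.87, and the alcohol pools lay between -2.92 in low drinker pool 1 and -2.45 in low drinker pool 2, with a median of -2.75. Water pool 1 lay above 6 of the 9 alcohol pools. The difference was 0.13 with a standard error of 0.10, and 0.05 without water pool 2 or 0.23 without water pool 1. It became -0.08 (standard error 0.18) in the fit with slide as a fixed block, since low drinker pool 1 lay below the water mean of its own slide.

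Vip, the peptide of the retinorecipient core, was higher in most alcohol arrays. Water pools read -1.42, -1.39 and -1.74. Low drinker pools read -1.26, -1.10 and -1.15, early high drinker pools -1.54, -1.39 and -1.28, and late high drinker pools -1.14, -1.24 and -1.29. Early high drinker pools 1 and 2 lay within the range of the water pools, and the other 7 alcohol pools lay above it. The difference was 0.25 with a standard error of 0.10, or 1.19 times the water signal. By group it was 0.35 in low, 0.11 in early high and 0.29 in late high drinkers (standard error 0.11 each). Without water pool 3, the lowest array, it was 0.14 over all alcohol pools, 0.24 in low, 0.00057 in early high and 0.18 in late high drinkers. Within slide 1, low drinker pool 1 exceeded the water mean by 0.25 and lay above each water pool. With slide as a fixed block the early and late high drinkers differed from water by -0.09 and -0.03, with standard errors of 0.19 and 0.24.

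The Vip receptor Vipr2 could not be compared between groups. One of its probes was not well above background on any of the 12 arrays, with signals from 5.57 to 15.7. The other was well above background on low drinker pool 3 alone, at a signal of 157.8, against signals from 4.01 to 32.1 on the other 11 arrays. No fold is given for it.

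Grp, the peptide of a further group of core neurons, overlapped between all groups. Water pools read 0.37, 0.41 and 0.24, and the alcohol pools lay between 0.30 in early high drinker pool 1 and 0.57 in late high drinker pool 1, with a median of 0.43. The difference was 0.10 with a standard error of 0.07, and 0.04 without water pool 3. Its largest mean was that of the late high drinkers, 0.50 ± 0.12 (SD, n = 3), against 0.34 ± 0.09 (SD, n = 3) in water.

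Rgs16, the regulator of inhibitory G proteins, varied more among the alcohol pools than any other measured member. The water pools were close together at 0.85, 0.88 and 0.78, but they shared slide 1 and held 3 mice each. The 9 alcohol pools held 1 to 3 mice and lay on 3 slides, so the spreads are not directly comparable. Low drinker pools read 0.46, 0.95 and 0.95, early high drinker pools 0.32, 0.36 and 0.95, and late high drinker pools 0.64, 0.27 and 0.99. Each drinking group thus held pools above and pools below all water pools. Over the 9 alcohol pools the SD was 0.31, against 0.10 to 0.15 for the other members, and 20.9% of 29521 probes had a wider spread, while the median SD was 0.14. The difference from water was -0.18 with a standard error of 0.17. With slide as a fixed block, early and late high drinkers differed from water by -0.98 and -1.29 (standard errors 0.29 and 0.37). That fit reaches water only through low drinker pool 1 and, for late high drinkers, early high drinker pool 3. Without the block the values were -0.29 and -0.20. Leaving out 1 pool gave -0.49 (early high drinker pool 3) to -0.18 (early high drinker pool 1) in early high drinkers. In late high drinkers it gave -0.38 (late high drinker pool 3) to -0.02 (late high drinker pool 2).

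**Figure D1:**
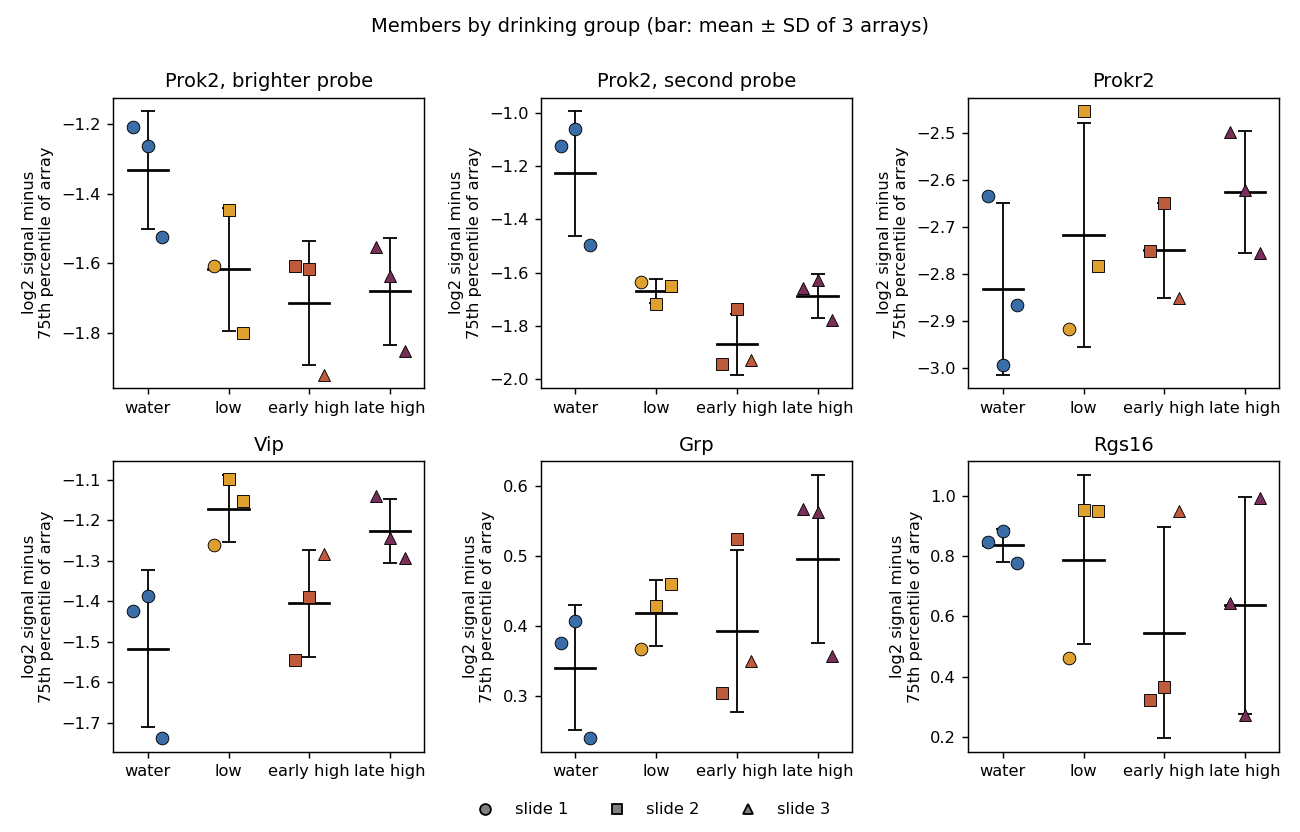
Log2 signal minus the 75th percentile of the array (vertical axis) for each measured probe by drinking group (horizontal axis), with 1 point per array, the shape giving its slide, and bars for the mean ± SD of 3 arrays. Prok2 lies lower in the alcohol groups on both probes, Vip higher in low and late high drinkers, and Rgs16 is tight in water (0.78 to 0.88) and wide in alcohol (0.27 to 0.99).

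**Figure D2:**
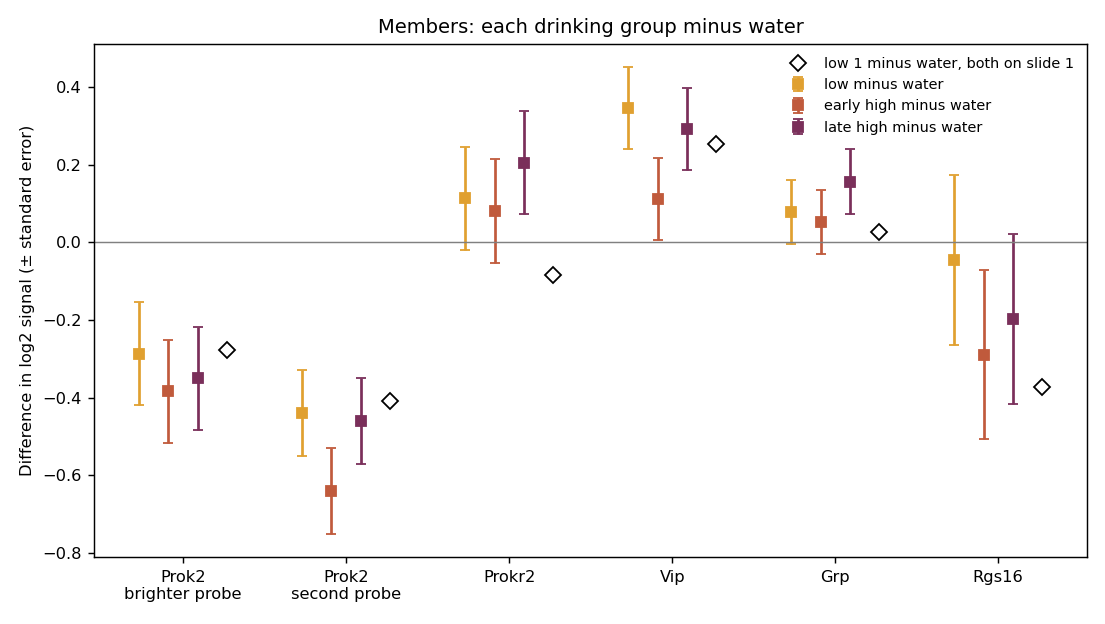
Difference in log2 signal from water (vertical axis, ± standard error) for the low, early high and late high drinkers, 3 arrays each, and as open diamonds for low drinker pool 1 against the 3 water pools of its slide, without an error. The diamonds lie on the side of the group values for Prok2 and Vip and below 0 for Prokr2.

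Whether the members followed the amount of alcohol drunk was asked within the alcohol pools, a comparison that did not choose them. High drinkers (6 pools) minus low drinkers (3 pools) gave 0 of 5 member genes at an adjusted p under 0.05 in limma, and 0 at an unadjusted p under 0.05, where 0.294% and 15.1% of 32335 probes passed. Vip had the smallest p, with a difference of -0.14 and a 95% interval from -0.35 to 0.06 (limma adjusted p = 0.455, exact permutation test over 84 divisions of the pools, 2-sided p = 0.131). For Prok2 it was -0.11 on the second probe, with an interval from -0.32 to 0.10 (limma adjusted p = 0.584), and -0.08 on the brighter probe, from -0.34 to 0.18. Without low drinker pool 2 the brighter probe gave 0.01. With no scaling between arrays, Vip differed by -0.02 and Prok2 by 0.02 (second probe) and 0.05 (brighter probe). Rgs16 had the widest interval, from -0.62 to 0.23 around -0.20. Its value was -0.36 without low drinker pool 1 and -0.11 without late high drinker pool 2. The drinking groups are spread unevenly over the slides, and with slide as a fixed block Rgs16 differed by -0.76, with an interval from -1.28 to -0.25 and an unadjusted p of 0.00891 (limma adjusted p = 0.187), where 14.4% of probes passed unadjusted and 0.498% adjusted. In that fit Vip differed by -0.31, from -0.65 to 0.03 (limma adjusted p = 0.386), and the brighter Prok2 probe by 0.13, from -0.29 to 0.55. No member passed after adjustment in either fit. Pituitary genes moved with the same comparison, with 6 of 6 tested genes at an unadjusted p under 0.05 and 0 at an adjusted p without the block, each lower in high drinkers. The mean of the 4 pituitary genes measured on every array, each centered over the arrays, lay between 0.47 and 0.74 in low and between -1.36 and 0.26 in high drinkers. The thalamus list, which Rgs16 followed across arrays, also moved with it within slide 2, at 0.32 and 0.46 in the low and -0.37 and -0.62 in the early high drinker pools. The part of both lists in the member values was not tested.

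Late minus early high drinkers, 3 pools against 3, also gave 0 of 5 member genes at an adjusted p, where 0% of 32373 probes passed, and 0 at an unadjusted p under 0.05, where 12.3% passed. Prok2 was 0.18 higher in late drinkers on the second probe, with a 95% interval from -0.07 to 0.43 (limma adjusted p = 0.530), and 0.03 higher on the brighter one, from -0.26 to 0.33. Vip was 0.18 higher, with an interval from -0.06 to 0.42 (limma adjusted p = 0.509). With no scaling between arrays the values were 0.34 (second Prok2 probe), 0.19 (brighter probe) and 0.33 (Vip). Without early high drinker pool 3 the brighter Prok2 probe gave -0.07. With slide as a fixed block the brighter Prok2 probe differed by 0.24, from -0.18 to 0.66, and Vip by 0.06, from -0.28 to 0.40. Rgs16 differed by -0.31 in that fit, from -0.83 to 0.20. An exact test of 3 against 3 pools cannot go below 0.10.

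Genes of the same pathways were taken from 3 lists of 41 genes, each with a probe, of which 40 could be tested. Between alcohol and water 0 of 40 had an adjusted p under 0.05 in limma, where 0% of 32376 probes did (smallest adjusted p = 0.819 in the lists). At an unadjusted p under 0.05 there were 2, 1 higher and 1 lower, where 5.53% of all probes passed. Their median difference was 0.01, beside 0.03 over all probes.

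Among the other peptides and receptors, 8 of 19 tested genes were higher and 11 lower, between -0.35 and 0.43. Prok1, the other prokineticin, read -3.59, -3.59 and -3.72 in water and between -4.23 and -3.52 in alcohol, a difference of -0.33 with a standard error of 0.15 (limma adjusted p = 0.819). Vipr1, a second receptor for Vip, differed by -0.35 with a standard error of 0.28, and its water pools ranged from -5.17 to -3.85. Cck, cholecystokinin, differed by 0.26 with a standard error of 0.23. Avp, vasopressin of the outer part of the nucleus and of other nuclei, differed by 0.01 with a standard error of 0.10.

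Of the 9 regional genes, 8 were higher and 1 was lower, from -0.01 to 0.27, with a median of 0.06. Six6, a transcription factor needed to form the nucleus, read -3.74, -3.85 and -4.03 in water and between -3.83 and -3.37 in alcohol, 0.25 higher with a standard error of 0.10 (limma adjusted p = 0.819). Rasd1, a small G protein that tunes responses to light, was 0.27 higher with a standard error of 0.18. Of the 12 RGS and G protein genes, 7 were higher and 5 lower, from -0.16 for Rgs20 (standard error 0.13) to 0.16 for Gnai1, an inhibitory G protein subunit (standard error 0.10). Over all 11 lists, clock genes and markers of neighboring tissue included, 0 tested genes had an adjusted p under 0.05 and 6 had an unadjusted p under 0.05, which is 5.71% of those tested, beside 5.53% of all probes. The highest differences among well measured genes there were those of Gbx2 (0.35, standard error 0.38) and Prkcd (0.33, standard error 0.69), both of the thalamus. The clock gene Per2 came next (0.30, standard error 0.10). The lowest, beside Vipr1, were those of the pituitary hormone genes Cga (-0.47, standard error 0.79) and Lhb (-0.33, standard error 0.20). The smallest limma adjusted p among all of these was 0.819. All 6 tested pituitary and all 5 tested choroid plexus genes were lower in alcohol, with medians of -0.27 and -0.05 beside 0.03 over all probes. Of these, 0 had an unadjusted p under 0.05, and some differences were far smaller than their errors, as for Gh (-0.03, standard error 1.22). Gh, Prl and Fshb were well above background on only 7, 6 and 9 arrays. Water pool 3 had a pituitary list mean of 0.90, against -0.28 and -0.04 in the other water pools.

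**Figure D3:**
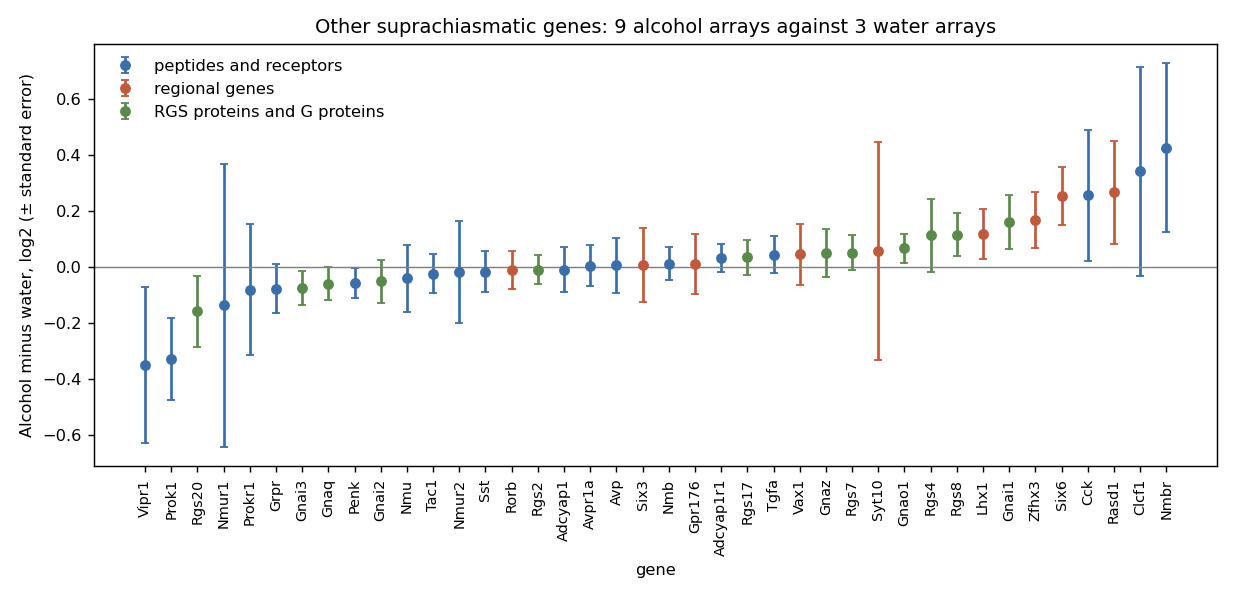
Alcohol minus water in log2 signal (vertical axis, ± standard error) for the 40 tested genes of the 3 lists (horizontal axis, sorted by the difference), colored by list. Values run from -0.35 to 0.43 around a median of 0.01, and the widest bars are those of Nmur1, Syt10 and Clcf1.

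Correlations among the members describe whether they moved together from array to array, a question that bears on how much suprachiasmatic tissue each array held, which was itself not measured. Of the 10 pairs of the 5 measured genes, 5 had r above 0 and 5 below, between -0.31 and 0.68, with a median of 0.05. Vip and Grp correlated most, with r = 0.68 and rho = 0.65, r = 0.50 to 0.76 when 1 array was left out, and r = 0.57 after centering on slide means. Prokr2 correlated with Grp (r = 0.56, centered 0.43) and with Vip (r = 0.45, centered 0.27). The brighter Prok2 probe had low values with these over all arrays (r = 0.11 with Prokr2, -0.24 with Vip and -0.01 with Grp). Its r with Prokr2 was 0.46 without water pool 2 and 0.0025 without early high drinker pool 3. After centering on slide means it correlated with Prokr2 at r = 0.73, with Grp at 0.51 and with Vip at 0.18, and over the 9 alcohol arrays alone at 0.67, 0.35 and 0.14. The second Prok2 probe gave other values. Its r with Prokr2 was -0.22 over all arrays, 0.36 after centering and 0.28 over the alcohol arrays, where it was 0.70 with Grp and 0.66 with Vip. The 2 probes thus differed in which gene they followed most. Rgs16 lay between r = -0.31 with Grp and 0.19 with Vip over all arrays on the brightest probes (0.24 with the second Prok2 probe), and between -0.45 with the brighter Prok2 probe and 0.55 with Vip over the alcohol arrays. Arrays of 1 slide share hybridization and scan, and the pools are few, so these values carry no test.

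**Figure D4:**
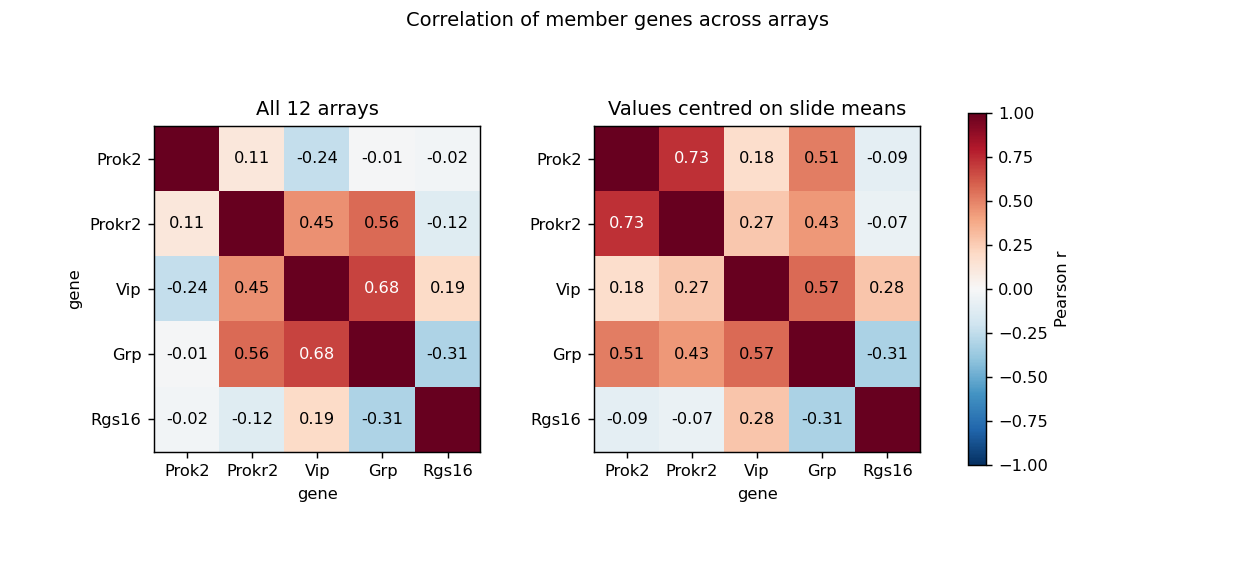
Pearson r between the 5 measured genes over 12 arrays, as measured (left) and after centering each gene on its slide means (right), from blue at -1 to red at 1. Prok2, shown by its brighter probe, goes from 0.11 to 0.73 with Prokr2 (from -0.22 to 0.36 on the second probe), whereas Vip with Grp stays at 0.68 and 0.57.

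The members were then compared with 8 lists of marker genes for the suprachiasmatic nucleus and neighboring tissue, each list taken as the mean of its genes centered over the arrays. Values of r over all 12 arrays take in the alcohol against water differences with which the members were chosen and are given as a description. The test was made on values centered on slide means and permuted within slides (100000 resamples, 2-sided), where the contrast enters only through low drinker pool 1 on the slide of the water pools. Of 40 relations, 0 had an adjusted p under 0.05 and 3 had an unadjusted p under 0.05. Rgs16 followed the 6 thalamus markers most closely, with r = 0.76 and rho = 0.83. It was 0.72 to 0.84 when 1 array was left out, 0.69 without the 2 arrays farthest from the list median and 0.75 with quantile normalization. After centering on slide means r was 0.93 (permutation within slides, p = 0.00127, adjusted 0.0508). All 6 markers went the same way, from r = 0.53 with Tcf7l2, a transcription factor of thalamic neurons, to 0.82 with Prkcd, a kinase of relay nuclei. The list mean was lowest in early high drinker pool 2 (-0.62), where Rgs16 read 0.36, and highest in late high drinker pool 3 (0.81), where Rgs16 read 0.99. With other hypothalamic nuclei Rgs16 had r = -0.63 and rho = -0.66, and r = -0.63 after centering (permutation within slides, p = 0.101, adjusted 0.534).

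Prokr2 followed the 9 regional genes of the suprachiasmatic nucleus, with r = 0.68 and rho = 0.65. It was 0.56 after centering on slide means (permutation within slides, p = 0.0940, adjusted 0.534) and 0.59 without the 2 farthest arrays. After centering, Prokr2 had a stronger relation with the white matter genes, r = -0.64 (permutation within slides, p = 0.0394, adjusted 0.525), against -0.29 before it. For the other members r with the regional list was -0.10 for Prok2, 0.30 for Vip, 0.40 for Grp and 0.03 for Rgs16, and for Prok2 it was 0.50 after centering and -0.56 without low drinker pool 1 and early high drinker pool 3. Which list Prok2 followed most depended on the slides. As measured it was the 6 white matter genes, with r = -0.62 and rho = -0.73, and then the choroid plexus list with r = 0.51. After centering it was the other hypothalamic nuclei, with r = 0.68 (permutation within slides, p = 0.0290, adjusted 0.525), against 0.28 before it, while white matter had r = -0.49 (permutation within slides, p = 0.138, adjusted 0.534). White matter genes ranged from -0.11 to -0.02 in water and from -0.13 to 0.15 in alcohol, and choroid plexus genes from -0.49 to 0.76 and from -0.58 to 0.54. Their part in the Prok2 values was not tested. Grp and Prokr2 followed the other hypothalamic nuclei, with r = 0.66 and 0.63 and rho = 0.69 and 0.57. After centering r was 0.64 and 0.56 (permutation within slides, p = 0.134 and 0.0983, adjusted 0.534 for both). Vip had its highest r over the 12 arrays with the thalamus list, 0.48, and this was 0.31 after centering and 0.57 without the 2 farthest arrays. With the pituitary list its r was 0.11 over all arrays and 0.72 without early high drinker pool 2 and water pool 3. With the regional genes it was 0.03 after centering and 0.58 without the 2 farthest arrays, and with the choroid plexus list it was 0.07 and 0.53 after centering.

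**Figure D5:**
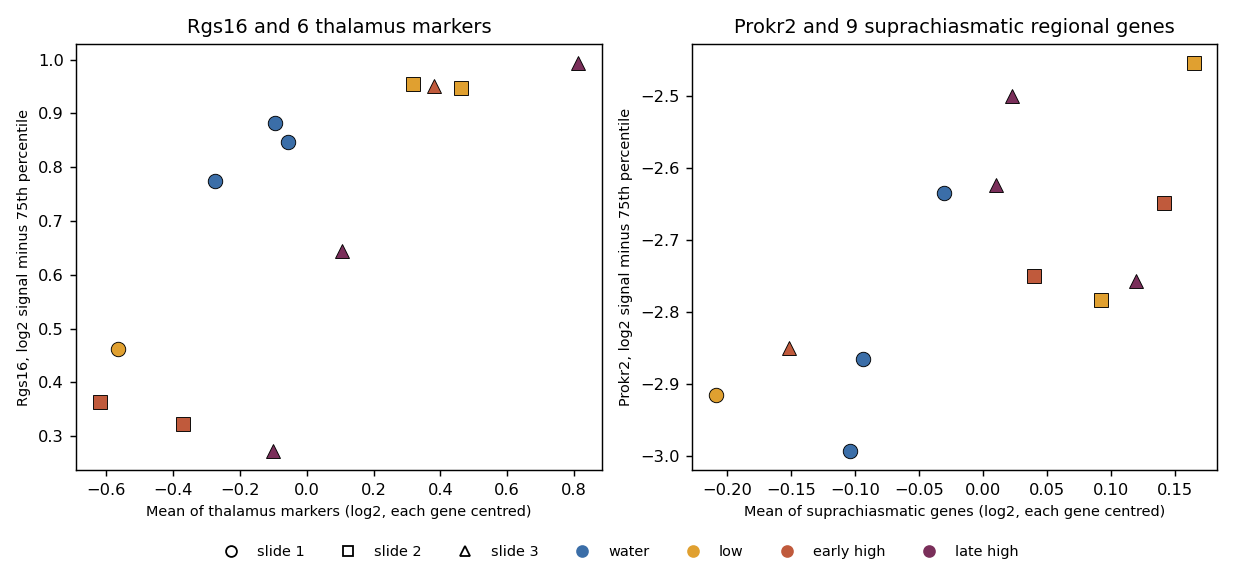
Left, Rgs16 (vertical axis, log2 signal minus the 75th percentile) against the mean of 6 thalamus markers (horizontal axis, log2, each gene centered), with 1 point per array, r = 0.76. Right, Prokr2 against the mean of 9 regional genes of the suprachiasmatic nucleus, r = 0.68, with colors for drinking groups and shapes for slides.

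The genes most like Prok2 and Vip over the 12 arrays were sought among 13014 annotated genes well above background on every array, by Pearson r. For the brighter Prok2 probe they were Olfr745 (0.93, centered on slide means 0.87), Gdf7 (0.84, centered 0.82), Npm3 (0.84, centered 0.72), Gpr179 (0.82, centered 0.80) and Prh1 (0.81, centered 0.67). For Vip they were Krba1 (0.90, centered 0.89), Hps6 (0.90, centered 0.87), Vps11 (0.89, centered 0.92), Adgrg2 (0.88, centered 0.94) and Ptger3 (0.88, centered 0.84). None of these 10 genes is in the marker lists. They are the highest of 13014 values over 12 arrays and are given as a description.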

How the data were processed

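Hypothalamic RNA of 12 pools was hybridized, labeled with Cy3, to Agilent mouse arrays. The deposited scanner files hold the authors' signal intensity per spot, corrected for background by Agilent Feature Extraction 10.5.1.1, on a linear scale and unscaled between arrays. The deposited value table of intensity served as an alternative. Here each intensity was put on a log2 scale relative to its array's 75th percentile (1512 to 1853 over 43379 non-control spots). Non-uniform spots and spots with signal/noise under 2 were missing, and spots of a probe were averaged. The 32376 probes measured on more than 50% of water and of alcohol arrays were fitted with limma 3.58.1 in R 4.3.3 (lmFit, eBayes, Benjamini-Hochberg), which was tested on simulated data. List correlations were also permuted over all 12 arrays, but since this takes in the contrast that chose the members, p-values are given from the permutation within slides. Permutations used numpy 2.4.6, and figures matplotlib 3.10.9. Symbols came from the array files, updated by accession for 3503 of 25089 matched probes through the GRCm38.p6 gene table. Promoter sequences are from RefSeq (GRCm38.p6).

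The members and gene lists were chosen with earlier results of these data known. Named list genes are the 3 largest rises and 3 largest falls among genes well above background on all 12 arrays, taken over the suprachiasmatic lists and over all lists; Avp and Gnai1 were added after their values were seen. The brightest probe stood for a gene. Lists were members, other peptides and receptors, regional genes, RGS and G proteins, clock, thalamus, striatum, cortex, white matter, pituitary, choroid plexus and other hypothalamic nuclei. Alternatives covered scaling, background, filters, slide, scan day, replicate number, each array left out, probe choice and the methods' t-test. No pair of arrays was identical (r over probes 0.979 to 0.996 over all pairs, within and between groups). The number of arrays limits the precision.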

Additional observations from a re-analysis of the deposited data

Results flagged for a closer look

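Of 17 measures checked over the 9 alcohol arrays, 1 had an array far from the rest, where 0.85 would be expected by chance. The mean of the 20 clock genes, each centered over the arrays, was 0.14 in low drinker pool 2 and 0.04 in the next array, a gap of 0.530 of the whole range against a critical value of 0.493. This pool also had the highest 25th percentile of signal, and no member measure passed the critical value.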

How the results depend on the processing

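Over all alcohol pools, Prok2 stayed below and Vip above water under every alternative run. For the brighter Prok2 probe the difference lay between -0.44 (without water pool 3) and -0.28 (without water pool 1) when 1 pool was left out, and it was -0.51 with the next brightest probe in its place. For that second probe leaving out 1 pool gave -0.65 (without water pool 3) to -0.43 (without water pool 2). For Vip it gave 0.14 to 0.31. The count of other suprachiasmatic genes at an unadjusted p under 0.05, 2 in the chosen setting, was 0 with normexp, with slide as a fixed or a random block and with scan day as a block, 1 with the methods' t-test, and 0 to 3 when 1 pool was left out. After adjustment it was 0 in every setting, and 0 members passed in high against low or late against early drinkers. Of 1146 recomputed values, 1102 stayed within the spread between alcohol arrays, within the 95% interval of r or on their side of the threshold. This count is no measure of stability, since differences among alcohol pools cannot change when a water pool is left out. The 44 that moved include late high drinkers against water with slide as a fixed block. There the brighter Prok2 probe went from -0.35 to -0.03, Vip from 0.29 to -0.03 and Rgs16 from -0.20 to -1.29. Slide and scan day as fixed blocks took alcohol against water from low drinker pool 1 alone.

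Same-numbered pools did not deviate together (r between -0.09 and 0.18, over 0.1 in 3 of 18 pairs, and 5 of 12 arrays correlated best with their own number). With the replicate block the count of genes was 1, and the Prok2 difference stayed at -0.34 with a standard error of 0.054. Dim probes, among them those of Vipr2, limit what could be measured, and the 3 water pools all lie on 1 slide.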
